A study of Saccharomyces cerevisiae with 8 samples.

Results

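The 44 genes described here encode nucleolar ribosome assembly factors of *S. cerevisiae*, the proteins with standard names UTP, NOP, NOC or RRP plus a number that act in ribosomal RNA (rRNA) processing and subunit assembly. They were taken by their systematic IDs from the 7126 genes of the deposited count tables. All 44 passed the filter on low counts and were among the 5778 genes tested. The RNA came from 8 cultures, 2 for each combination of strain and medium. Both strains were MATa ade2 his3 ura3 and carried the deletion ppn1delta::CgTRP1 of *PPN1*, which encodes a polyphosphatase. CRN/PPN1 was CRN that had received the vector pMB1/PPN1 Sc and overproduced Ppn1, whereas no empty vector is named for CRN, so that the vector and its gene cannot be told apart. The genotype field calls CRN WT, although its strain field names the deletion. The 4 groups were CRN/PPN1 in YPD with 5 mM MnSO4, harvested after 16 h, CRN/PPN1 in control YPD, harvested after 12 h, CRN in YPD with 5 mM MnSO4, harvested after 40 h, and CRN in control YPD, harvested after 12 h. All media held 14 mM KH2PO4, and all cultures were taken in logarithmic growth according to the labels. Time of harvest cannot be told apart from manganese within a strain, nor from strain between the 2 manganese groups. The promoter on the vector is not given in the sources used here.

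Ribosome assembly begins in the nucleolus, where RNA polymerase I makes a long rRNA precursor that is folded, modified, cut and packed with ribosomal proteins. The small-subunit processome forms on the leading spacer of this precursor, first with the UtpA subcomplex, then with UtpB and the U3 box C/D ribonucleoprotein, and further UTP proteins follow. A separate set of NOP, NOC and RRP proteins builds the particles of the large subunit. The genes of these factors form the ribosome biogenesis regulon of yeast. Many carry the PAC and RRPE elements upstream, which are bound by the repressors Dot6 and Tod6 (PAC) and Stb3 (RRPE).

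Most of the 44 genes held both elements upstream. In the 250 bases before each start codon, read on both strands in the RefSeq genome of build R64 (sacCer3), the PAC core GATGAG was found for 39 of the 44 genes (88.6%), against 1022 of 6007 coding genes (17.0%). The longer form GCGATGAG, which contains the PAC core, was found for 20 of the 44 (45.5%), against 3.83% of all windows. The RRPE core AAAAATTT was found for 33 (75%), against 13.4%. Both cores stood before 29 of the 44 genes (65.9%) and before 4.98% of all coding genes, and *UTP22* was the only member with neither. The longer PAC lay at a median of 127 bases and the RRPE core at a median of 139 bases before the start codon. Among 70 other assembly factors of both subunits the PAC core was found in 91.4% of the windows, and among 137 cytosolic ribosomal protein genes in 10.2%. Stretches around both elements are shown for 5 members whose RNA levels are described in the following paragraphs, with PAC and RRPE cores of either strand in capitals and each read 5′ to 3′ on the strand of its gene. They are *NOP8* on the + strand at chrXV:52970-53014, *UTP14* on the + strand at chrXIII:82965-83012, *NOP2* on the + strand at chrXIV:510387-510426, *UTP11* on the - strand at chrXI:256584-256634 and *NOP16* on the + strand at chrV:156634-156713.
NOP8: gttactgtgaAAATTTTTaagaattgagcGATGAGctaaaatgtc
UTP14: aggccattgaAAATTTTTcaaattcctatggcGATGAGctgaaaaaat
NOP2: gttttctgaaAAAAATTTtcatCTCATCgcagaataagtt
UTP11: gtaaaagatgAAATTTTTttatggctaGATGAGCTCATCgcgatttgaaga
NOP16: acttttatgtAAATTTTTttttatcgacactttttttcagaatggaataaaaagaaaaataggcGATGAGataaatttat
In *NOP8*, *UTP14*, *UTP11* and *NOP16* the RRPE core stood as its reverse complement ahead of the PAC core, and in *UTP11* a pair of PAC cores of opposite strands met. In the stretch shown, *NOP2* had its PAC core as the reverse complement, CTCATC. The 5 genes without a PAC core were *UTP4*, *UTP15*, *UTP22*, *UTP30* and *NOP53*.

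**Figure D1:**
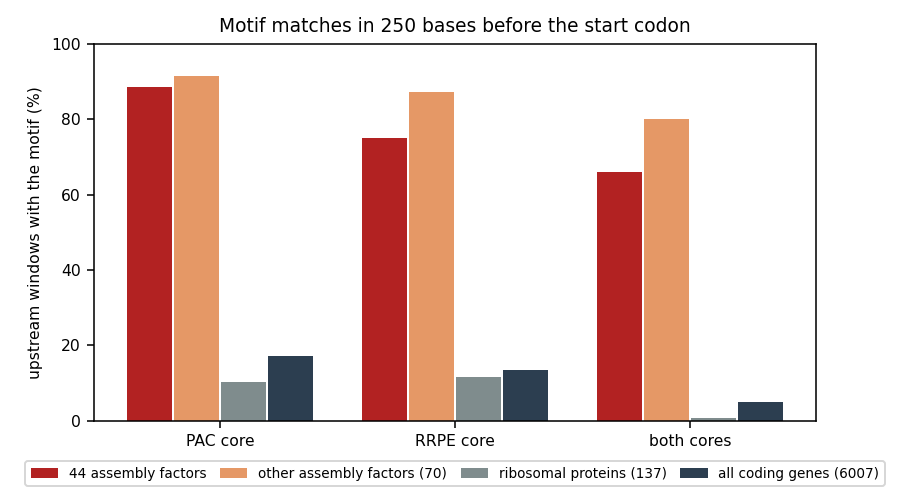
Share of genes (%, vertical axis) with the PAC core, the RRPE core or both in the 250 bases before the start codon, for the 44 assembly factors, 70 other assembly factors, 137 ribosomal protein genes and all 6007 coding genes. The bars of the 44 genes reach 88.6%, 75% and 65.9%, against 17.0%, 13.4% and 4.98% for all coding genes.

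The libraries held 3252550 to 4914932 reads, of which 2309776 to 3579469 were counted on genes, and a member had between 28 and 1309 counts in a library. *PPN1* had 22035 and 25525 counts in the CRN/PPN1 manganese libraries, 7216 and 7027 in the CRN/PPN1 control libraries, 39 and 3 in the CRN manganese libraries, and 9 and 7 in the CRN control libraries, as the strain labels have it. The makeup of the libraries differed strongly between the groups. Ribosomal protein genes took 19.4% and 20.3% of the counts in the CRN/PPN1 manganese libraries, 38.1% and 36.6% in the CRN/PPN1 control libraries, 5.78% and 6.82% in the CRN manganese libraries, and 51.5% and 45.6% in the CRN control libraries. Genes with coding lengths of at most 648 bp, the shortest 1111, took 33.8% and 34.9%, 66.6% and 64.9%, 16.5% and 18.8%, and 78.2% and 71.8% in the same 4 groups. The 44 members together took 0.647% and 0.662% of the counts in the CRN/PPN1 manganese libraries, 0.385% and 0.378% in the CRN/PPN1 control libraries, 0.653% and 0.671% in the CRN manganese libraries, and 0.331% and 0.403% in the CRN control libraries. After TMM normalisation, which sets the bulk of genes level between libraries, their summed level was 5001 and 5028, 4822 and 4466, 4061 and 4119, and 6518 and 6203 CPM (counts normalised for library size). Both manganese groups thus had larger shares of the raw counts than both control groups, while the lowest normalised sums were those of CRN in manganese. Scaling to the library total moved the median of all genes, for manganese against control, by 1.49 on the log2 scale in CRN and by 0.67 in CRN/PPN1, by 0.51 and -0.31 for CRN/PPN1 against CRN in control medium and in manganese, and by -0.82 in the interaction. Changes are therefore given after TMM and set against the median of all genes. A change of scaling shifts all genes nearly alike, so this difference can hardly move with it and is no check on the normalisation.

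Levels are compared between genes as normalised CPM per kilobase of coding length (RPKM), averaged over the 2 libraries of a group. *NOP15* (YNL110C), whose product binds the second internal spacer of the precursor, was the highest member in CRN in control medium and the tenth in CRN in manganese. It had 211 RPKM in CRN/PPN1 manganese cultures, 411 in CRN/PPN1 control cultures, 90.1 in CRN manganese cultures and 776 in CRN control cultures. *NOP1* (YDL014W), the fibrillarin methyltransferase of box C/D particles, was the highest member in both manganese groups, with 273 RPKM in CRN/PPN1 and 216 in CRN. *NOP8* was the lowest in both control groups, with 10.3 RPKM in CRN/PPN1 and 19.3 in CRN. The highest member exceeded the lowest 12.8 times in CRN/PPN1 manganese cultures, 39.7 times in CRN/PPN1 control cultures, 14.7 times in CRN manganese cultures and 40.2 times in CRN control cultures. This span was thus smaller in both manganese groups, but it rests on 1 gene at each end. The members ranked 11 and 33 had 81.9 and 36.5 RPKM in CRN/PPN1 manganese cultures and 87.5 and 31.4 in CRN/PPN1 control cultures. In CRN they had 86.8 and 31.2 in manganese cultures and 129 and 41.1 in control cultures. The median member had 51.7, 50.4, 45.1 and 59.2 RPKM in the same 4 groups.

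**Figure D2:**
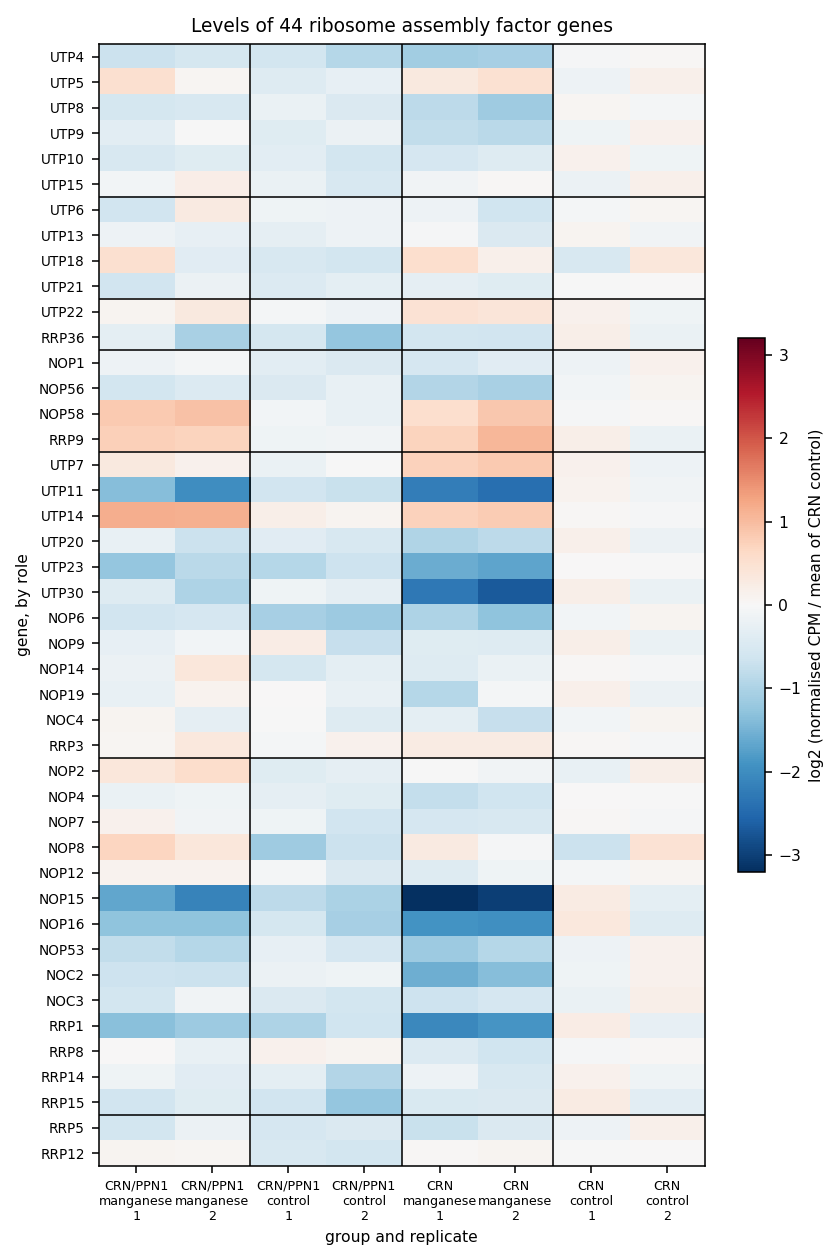
Level of each of the 44 genes in each of the 8 libraries, as log2 of normalised CPM over the mean of the 2 CRN control libraries (colour, blue lower and red higher); rows are grouped by role (UtpA, UtpB, UtpC, box C/D and U3 core, other small-subunit factors, large-subunit factors, both subunits). *NOP15*, *UTP30* and *UTP11* are the darkest blue in CRN in manganese, while *NOP58*, *RRP9* and *UTP14* are red in both manganese groups.

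In CRN, 10 of the 44 genes were called lower in manganese than in control medium and 0 higher (adjusted p no larger than 0.05 with a log2 fold change past 1 in either direction), but with scaling to the library total 23 were called higher and 1 lower, beside 63.7% and 10.5% of all genes on that scale. The 10 were 22.7% of the members, beside 24.0% of all tested genes called lower, and the 0 called higher stood beside 24.7%. By edgeR, 5 members were higher and 22 lower at an unadjusted p under 0.05. The share of all genes at this limit was not counted in any comparison. DESeq2 called 0 higher and 12 lower, beside 23.3% and 25.1% of all genes. With no limit on the fold, 21 members were lower and 4 higher at adjusted p of at most 0.05, beside 31.2% and 32.6% of all genes. The median member had a log2 fold change of -0.47, against 0.089 for all genes, a difference of -0.56. This difference was -0.96 with a trend on coding length removed from each library. It was -0.55 after scaling to the library total, which shifts all genes nearly alike. In bulk RNA, fewer cells expressing a gene and less RNA of it per cell cannot be told apart.

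The large-subunit factors held 5 of the 10 called genes. *NOP15* had 55.5 and 63.9 normalised CPM in CRN in manganese, against 612 and 417 in CRN in control medium (log2 fold change -3.10 ± 0.24 SE, adjusted p = 2.77e-08). It fell furthest of the 44 and was the member called lower after scaling to the library total (-1.59). *NOC2* (YOR206W), whose product forms dimers with other NOC proteins in early large-subunit particles, had 92.8 and 106 normalised CPM in manganese, against 249 and 301 in control medium (log2 fold change -1.46 ± 0.19 SE, adjusted p = 6.15e-06), but 0.0065 after scaling to the library total. The groups of both genes stood well apart. With 2 libraries a group, a lack of overlap is a description only, here and in all comparisons that follow. *RRP12* lacked overlap as well (adjusted p = 0.755 by edgeR), and the share over all genes was not counted in any comparison. *RRP1* (YDR087C) and *NOP16* (YER002W), components of early large-subunit particles, had log2 fold changes of -1.97 and -1.94 and were called lower. *NOP53* (YPL146C), which docks the exosome helicase on the particle, had log2 fold change -1.02 ± 0.21 SE, adjusted p = 0.000486, a call lost without CRN replicate 1 in manganese (-0.88), without CRN replicate 2 in control medium (-0.86), when reads of either strand were counted (-0.98) and, with the sign turned, after scaling to the library total (0.45). Its value lay at the edge of the call rule. *NOC3* (YLR002C), the partner of *NOC2* in later particles, had 57.4 and 63.4 normalised CPM in manganese and 78.7 and 105 in control medium and fell short of the fold limit (log2 fold change -0.60 ± 0.23 SE, adjusted p = 0.0301). The methyltransferase gene *RRP8* (YDR083W) did so as well, with 56.1 and 48.9 normalised CPM in manganese and 73.1 and 78.1 in control medium (log2 fold change -0.53 ± 0.21 SE, adjusted p = 0.0357). Of the 14 large-subunit genes, 13 had a negative fold change, and *NOP8* was the exception, with 34.1 and 27.3 normalised CPM in manganese and 17.3 and 38.8 in control medium (0.12 ± 0.36 SE, adjusted p = 0.791).

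Among the 12 other small-subunit factors, 4 were called lower. *UTP30* (YKR060W), which codes for a processome protein, had 13.8 and 10.5 normalised CPM in CRN in manganese, against 77.4 and 58.4 in CRN in control medium (log2 fold change -2.48 ± 0.29 SE, adjusted p = 2.39e-06). *UTP11* (YKL099C), needed for early cleavages of the precursor, had 37.8 and 32.6 normalised CPM in manganese, against 188 and 162 in control medium (log2 fold change -2.31 ± 0.23 SE, adjusted p = 3.87e-07). In both genes every manganese library lay several fold under every control library. *UTP23* (YOR004W), needed for the release of a small nucleolar RNA from the particle, fell by 1.63 on the log2 scale. *NOP6* (YDL213C), an RNA-binding factor of early assembly, had 98.3 and 79.4 normalised CPM in manganese, against 182 and 207 in control medium (log2 fold change -1.13 ± 0.19 SE, adjusted p = 9.72e-05), a call lost without CRN replicate 2 in manganese (-0.97), and a positive value after scaling to the library total (0.34) or removal of a trend with coding length (0.14). The other way moved *UTP7* (YER082C) and *UTP14* (YML093W), the second of which activates the helicase that frees U3. *UTP7* had 168 and 180.0 normalised CPM in manganese, against 110.3 and 89.9 in control medium (log2 fold change 0.80 ± 0.19 SE, adjusted p = 0.00212). *UTP14* had 101 and 105, against 61.3 and 58.4 (log2 fold change 0.78 ± 0.19 SE, adjusted p = 0.00246). Both were higher without reaching the fold limit, and their groups did not overlap, which is a description only. *RRP3* (YHR065C), a DEAD-box helicase gene, had 79.4 and 79.0 normalised CPM in manganese and 67.5 and 65.2 in control medium (log2 fold change 0.26 ± 0.20 SE, adjusted p = 0.284). *NOC4* (YPR144C), the small-subunit relative of the NOC genes, had 65.0 and 48.3 in manganese and 76.2 and 86.0 in control medium (log2 fold change -0.52 ± 0.24 SE, adjusted p = 0.0673), and neither passed the test.

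The box C/D and U3 core proteins, which share a particle, divided in CRN. *NOP56* (YLR197W) had 194 and 181 normalised CPM in manganese, against 347 and 392 in control medium (log2 fold change -0.98 ± 0.19 SE, adjusted p = 0.000289), and *NOP1* had 200.1 and 224, against 261 and 320.3 (log2 fold change -0.45 ± 0.19 SE, adjusted p = 0.0453). Both were lower within the fold limit. *NOP58* (YOR310C), the partner of *NOP56* in the particle, had 129 and 162 normalised CPM in manganese, against 86.7 and 92.2 in control medium (log2 fold change 0.70 ± 0.20 SE, adjusted p = 0.00534). *RRP9* (YPR137W), the protein particular to U3, had 68.9 and 88.3, against 47.7 and 36.5 (log2 fold change 0.90 ± 0.23 SE, adjusted p = 0.00319). Both were higher within the fold limit. The libraries of the 2 media did not overlap for any of the 4 genes, which is a description with 2 libraries a group. After scaling to the library total all 4 were positive, with 0.50 for *NOP56*, 1.02 for *NOP1*, 2.19 for *NOP58* and 2.41 for *RRP9*.

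Of the 6 genes of UtpA, the subcomplex that binds the precursor first, only *UTP4* (YDR324C) was called lower in CRN (log2 fold change -1.09 ± 0.19 SE, adjusted p = 0.00016, but 0.39 after scaling to the library total). *UTP8*, *UTP9* and *UTP10* were lower within the fold limit, at -0.98, -0.83 and -0.47, while *UTP15* (-0.046) and *UTP5* (0.39) did not pass the test. The 4 genes of UtpB ranged between -0.39 and 0.36 and none passed. *UTP18* (YJL069C) had 73.0 and 55.9 normalised CPM in manganese and 35.3 and 64.6 in control medium, with overlapping groups (log2 fold change 0.36 ± 0.31 SE, adjusted p = 0.328). In UtpC, *UTP22* (YGR090W), which also links the processome to the regulator Ifh1, had 149 and 141 normalised CPM in manganese and 119 and 98.3 in control medium (log2 fold change 0.42 ± 0.19 SE, adjusted p = 0.0721), and *RRP36* had -0.60 ± 0.34 SE, adjusted p = 0.13. Of the factors of both subunits, *RRP5* (YMR229C) had 125 and 149 normalised CPM in manganese, against 181 and 226 in control medium (log2 fold change -0.57 ± 0.20 SE, adjusted p = 0.0223), and *RRP12* had 0.066 ± 0.17 SE, adjusted p = 0.755.

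**Figure D3:**
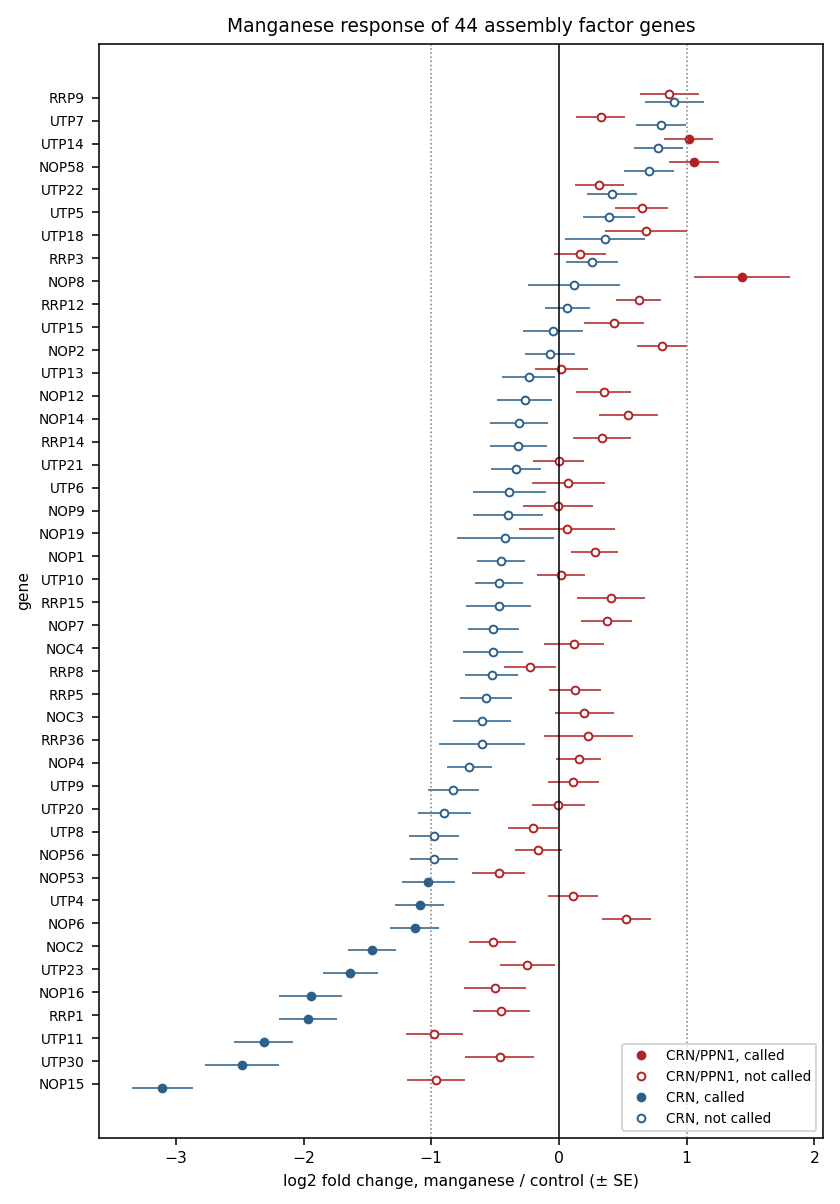
Log2 fold change of manganese over control medium after TMM normalisation (horizontal axis, ± SE) for the 44 genes in CRN/PPN1 (red) and CRN (blue), ordered by the value in CRN; filled points were called and dotted lines mark a log2 fold change of 1 either way. The values in CRN run between -3.10 and 0.90, with 10 called lower, and those in CRN/PPN1 between -0.98 and 1.43, with 3 called higher; scaled to the library total, 23 genes are called higher and 1 lower in CRN, beside 63.7% and 10.5% of all genes.

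In CRN/PPN1, manganese was accompanied by fewer called members, and these were higher. Of the 44 genes, 3 were called higher in manganese than in control medium, beside 10.1% of all tested genes, and 0 lower, beside 15.1%, while scaling to the library total gave 15 higher and 0 lower, beside 32.4% and 6.99% of all genes on that scale. By edgeR, 9 members were higher and 4 lower at an unadjusted p under 0.05. DESeq2 called 3 higher and 0 lower, beside 10.1% and 15.1% of all genes. With no limit on the fold, 8 members were higher and 3 lower, beside 18.4% and 20.7% of all genes. The median was 0.14 for the members and 0.015 for all genes, and 30 of the 44 values were positive. This small difference rested on single libraries, since the median of the members was 0.25 without CRN/PPN1 replicate 1 in control medium, 0.24 without CRN/PPN1 replicate 1 in manganese and 0.096 without CRN/PPN1 replicate 2 in control medium, with 31, 29 and 26 values positive. With the length trend removed, the median of the members was 0.065 and fell below the 0.12 of all genes.

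*NOP8* (YOL144W), a large-subunit factor that works with DEAD-box helicases, had 45.3 and 35.8 normalised CPM in CRN/PPN1 in manganese, against 12.6 and 17.4 in CRN/PPN1 in control medium (log2 fold change 1.43 ± 0.38 SE, adjusted p = 0.00712). It is a low gene, and the call was lost without CRN/PPN1 replicate 1 in control medium (1.22, adjusted p = 0.0815) and when reads of either strand were counted (0.60, adjusted p = 0.0814). Of the reads over *NOP8*, 39.7% and 31.4% were on the other strand in manganese, against 70.5% and 66.4% in control medium, and their part in the result was not tested. *NOP58* had 161 and 171 normalised CPM in manganese, against 84.1 and 75.7 in control medium (log2 fold change 1.06 ± 0.19 SE, adjusted p = 0.000541). *UTP14* had 134 and 131, against 67.7 and 63.1 (log2 fold change 1.02 ± 0.19 SE, adjusted p = 0.00058). Every manganese library of these genes lay above every control library, a description only with 2 libraries a group. The calls of *NOP58* and *UTP14* were lost without CRN/PPN1 replicate 2 in control medium, at 0.98 and 0.97. In that fit *NOP15* was at -1.05 and *UTP11* at -1.02. The calls of *NOP58* and *UTP14* were also lost with the length trend removed, at 0.98 and 0.81. Higher within the fold limit were *RRP9*, with 70.9 and 69.4 normalised CPM in manganese, against 38.4 and 38.7 in control medium (log2 fold change 0.86 ± 0.23 SE, adjusted p = 0.00792), the rRNA methyltransferase gene *NOP2* (YNL061W, 0.80, adjusted p = 0.00436), *UTP5* (0.65), *RRP12* (0.62) and *NOP6*. *NOP6* had 127 and 133 normalised CPM in manganese, against 93.0 and 87.5 in control medium (log2 fold change 0.53 ± 0.19 SE, adjusted p = 0.0413).

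The members that fell in CRN/PPN1 within the fold limit were 3 of those called lower in CRN. *UTP11* had 67.6 and 44.4 normalised CPM in manganese, against 113 and 107 in control medium (log2 fold change -0.98 ± 0.23 SE, adjusted p = 0.00302). *NOP15* had 163 and 117, against 288 and 256 (log2 fold change -0.96 ± 0.23 SE, adjusted p = 0.00363). *NOC2* had 173 and 170.0, against 242 and 249.7 (log2 fold change -0.52 ± 0.18 SE, adjusted p = 0.0364). In each the groups stood apart, a description only. *UTP30*, with 50.8 and 34.2 normalised CPM in manganese and 62.0 and 55.3 in control medium, did not pass the test (log2 fold change -0.46 ± 0.27 SE, adjusted p = 0.191). Nor did *NOP56*, with 247 and 273 in manganese and 268 and 313 in control medium (-0.16 ± 0.18 SE, adjusted p = 0.52), or *NOP1*, with 261 and 276 in manganese and 230.1 and 212 in control medium (0.28 ± 0.19 SE, adjusted p = 0.256). *NOC3* had 61.2 and 84.2 in manganese and 66.1 and 60.5 in control medium (log2 fold change 0.20), and *NOC4* had 86.7 and 66.4 in manganese and 80.0 and 60.9 in control medium (0.12). For *RRP5* the levels were 136 and 179.6 in manganese and 141 and 148 in control medium (0.13), and for *RRP8* they were 75.7 and 64.5 in manganese and 83.7 and 80.1 in control medium (-0.22). None of these passed. The libraries of *UTP30*, *NOP1* and *RRP8* stood apart between the media, although none of these genes passed, and those of the other 4 overlapped. The share of all genes without overlap was not counted. *UTP7* had 123 and 109.5 in manganese and 86.9 and 98.8 in control medium (0.33), and *RRP3* had 69.6 and 83.9 in manganese and 63.7 and 73.1 in control medium (0.17). *UTP18* had 70.9 and 39.1 in manganese and 35.1 and 33.5 in control medium (0.68), and *UTP22* had 115 and 136 in manganese and 104 and 96.6 in control medium (0.32). These 4 did not pass either, and the manganese libraries lay above the control libraries in all but *RRP3*.

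**Figure D4:**
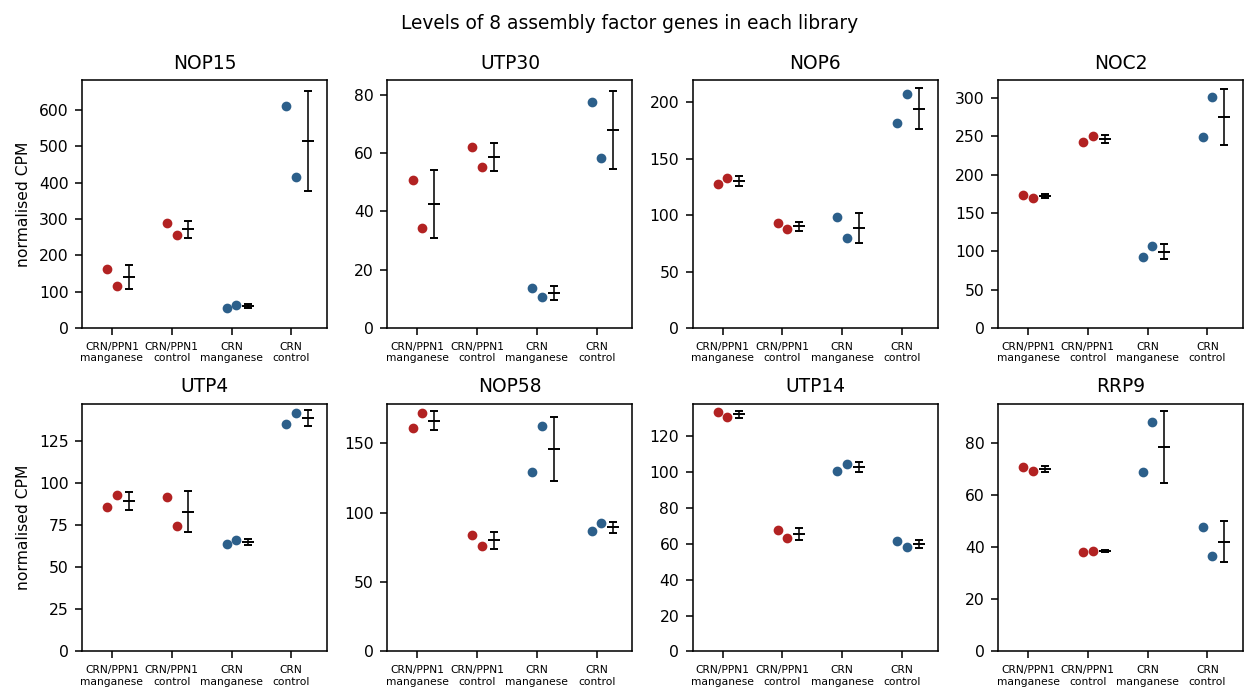
Normalised CPM of 8 members in each library (points, vertical axes starting at 0), by group (CRN/PPN1 in red, CRN in blue), with the mean and SD of the 2 libraries beside them in black. *NOP15*, *UTP30*, *NOC2* and *UTP4* are lowest in CRN in manganese, while *NOP58*, *UTP14* and *RRP9* lie higher in manganese than in control medium in both strains.

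The interaction of strain and medium tests whether the manganese response of CRN/PPN1 differed from that of CRN. The manganese cultures were harvested after 16 h in CRN/PPN1 and 40 h in CRN, so strain and time cannot be told apart in it. The interaction was positive for 40 of the 44 genes (median 0.72, against -0.02 for all genes), a sign that turned with scaling to the library total (median -0.087, against -0.84 for all genes). The members stood 0.74 and 0.75 above all genes on the 2 scales, which differ by a nearly common shift of all genes. After TMM, 8 members (18.2%) were called higher, beside 15.0% of all tested genes, and 0 lower, beside 11.6%, whereas scaling to the library total gave 2 higher (*NOP15* and *UTP30*) and 1 lower (*UTP7*), beside 6.33% and 37.2% of all genes on that scale. By edgeR 23 members were higher and 0 lower at an unadjusted p under 0.05. DESeq2 called 10 higher and 0 lower, beside 16.1% and 10.1% of all genes. With no limit on the fold, 17 (38.6%) were higher and 0 lower, beside 17.4% and 13.1% of all genes. The 8 genes were *NOP15* (2.14 ± 0.32 SE, adjusted p = 0.000169), *UTP30* (2.02, adjusted p = 0.00127), *NOP6* (1.66, adjusted p = 0.000325), *RRP1* (1.51), *NOP16* (1.44), *UTP23* (1.39), *UTP11* (1.34) and *UTP4* (1.20). All 8 were among the 10 called lower in CRN, which enter this contrast, so the overlap is no separate evidence. For *UTP11* the call was lost without CRN/PPN1 replicate 1 in manganese (1.00, adjusted p = 0.0201). With the length trend removed, the calls of *NOP16*, *NOP6*, *UTP11* and *UTP23* were lost. At the other end of the list were *UTP7* (-0.47, adjusted p = 0.209), *UTP22* (-0.10), *RRP3* (-0.089) and *RRP9* (-0.04), which did not pass the test.

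Between the strains in control medium, 41 of the 44 genes had lower values in CRN/PPN1 than in CRN, but the differences were small (median -0.36, against -0.007 for all genes) and the median turned to 0.14, against 0.50 for all genes, with scaling to the library total. Of the members, 1 was called lower, beside 4.45% of all tested genes, and 0 were called higher, also beside 4.45%. By edgeR 15 were lower and 0 higher at an unadjusted p under 0.05. DESeq2 called 1 lower and 0 higher, beside 4.90% and 4.40% of all genes. With no limit on the fold 8 were lower and 0 higher, beside 8.88% and 6.52%. The called gene was *NOP6*, with 93.0 and 87.5 normalised CPM in CRN/PPN1 against 182 and 207 in CRN (log2 fold change -1.11 ± 0.20 SE, adjusted p = 0.00143), and its call was lost with scaling to the library total or removal of the length trend, both of which left 0 members called. *NOP15* followed, with 288 and 256 against 612 and 417 (log2 fold change -0.92 ± 0.23 SE, adjusted p = 0.0119), and then *NOP8*, with 12.6 and 17.4 against 17.3 and 38.8 and overlapping libraries (log2 fold change -0.91 ± 0.40 SE, adjusted p = 0.145). The members passing with smaller folds were *NOP15*, *RRP15*, *RRP1*, *UTP23*, *NOP16*, *UTP4* and *RRP12*. The highest values were those of *UTP14* (0.13), *RRP8* (0.11) and *RRP3* (0.043), none past the test. The count rested on few libraries. Without CRN replicate 2 in control medium, *RRP15* had -1.17 and *NOP16* -1.11. Without CRN/PPN1 replicate 1 in control medium they had -1.24 and -1.06, so both went past the fold limit.

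In manganese, CRN/PPN1 was above CRN for 35 of the 44 genes (median 0.37, against -0.008 for all genes, and 0.057, against -0.32, with scaling to the library total, where 24 were positive). CRN/PPN1 was harvested after 16 h and CRN after 40 h, so strain and time of harvest cannot be told apart in this comparison. *UTP30* had 50.8 and 34.2 normalised CPM in CRN/PPN1, against 13.8 and 10.5 in CRN (log2 fold change 1.81 ± 0.29 SE, adjusted p = 0.000252), and *NOP15* had 163 and 117, against 55.5 and 63.9 (log2 fold change 1.23 ± 0.23 SE, adjusted p = 0.00099). These 2 were the members called higher, beside 10.4% of all tested genes, and 0 were called lower, beside 7.37%. The *NOP15* call was lost without CRN/PPN1 replicate 1 (0.99) and with removal of the length trend (0.97) or scaling to the library total (0.91), each of which left *UTP30* alone. By edgeR 16 members were higher and 1 lower at an unadjusted p under 0.05. DESeq2 called 2 higher and 0 lower, beside 10.8% and 6.96% of all genes. With no limit on the fold, 10 were higher and 1 lower, beside 17.7% and 14.0%. Among the 10 was *NOC2*, with 173 and 170.0 normalised CPM in CRN/PPN1 against 92.8 and 106 in CRN (log2 fold change 0.78 ± 0.19 SE, adjusted p = 0.0047), and the lower gene was *UTP7*, with 123 and 109.5 against 168 and 180.0 (log2 fold change -0.58 ± 0.19 SE, adjusted p = 0.0285). *UTP18* (70.9 and 39.1 against 73.0 and 55.9) and *UTP22* (115 and 136 against 149 and 141) were next in that direction, at -0.23 and -0.21, and did not pass. The comparisons share libraries, CRN in control medium among them, so their values stand side by side and are not set against each other as separate tests.

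Coding length moved with these differences. The members ranged between 591 and 7482 bp, and 9 were shorter than 840 bp. In CRN, 7 of those 9 were called lower in manganese, beside 24.0% of all tested genes. These were all except *NOP19* and *RRP15*, and they included the 6 largest falls. The share called lower among all genes of such length was not counted. The median log2 fold change was -1.94 for the 9 short members and -0.39 for the 35 longer ones. In CRN/PPN1 the medians were -0.45 and 0.20. The limit of 840 bp was set without a stated rule and lies just above *RRP1* (837 bp, -1.97 in CRN). This split is therefore a description only. Spearman's rho of the response on coding length was 0.37 in CRN and 0.22 in CRN/PPN1 over the 44 genes, which share libraries, and is given as a description. Over all genes the medians rose with length as well. Between 651 and 1032 bp, the median in CRN was -1.79 for its 10 members and -0.23 for all its genes, and between 1476 and 2127 bp it was -0.07 for its 15 members and 0.61 for all genes. With genes divided by length into 5 equal classes, the members in CRN lay under the median of their own class in 4. They lay above it in the shortest, which held *NOP19* alone (-0.42, against -2.29). From the shortest class to the longest, the medians of the members in CRN were -0.42, -1.79, -0.36, -0.07 and -0.40, without a steady rise. In CRN/PPN1 they were 0.064, -0.35, 0.20, 0.33 and 0.063, against -1.21, -0.074, 0.17, 0.27 and 0.35 for all genes. With the length trend removed, 14 members were called lower in CRN, beside 13.5% of all genes, and 1 higher, beside 28.2%. *NOP15*, *UTP30*, *UTP11*, *RRP1*, *NOC2*, *UTP4* and *NOP53* were still among the 14, whereas *NOP16*, *UTP23* and *NOP6* were not, and *NOP4*, *NOP56*, *RRP5*, *UTP8*, *UTP9*, *UTP10* and *UTP20* came in. In the interaction, 12 were then called higher, beside 7.67% of all genes. Of the 8 called before, *NOP15*, *RRP1*, *UTP30* and *UTP4* were among the 12 and the other 4 were not, and *NOC2*, *NOP2*, *NOP4*, *NOP7*, *NOP14*, *RRP5*, *UTP9* and *UTP20* came in. The part of coding length in the libraries' makeup, and of RNA quality, which has no measure in the files, was not tested.

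**Figure D5:**
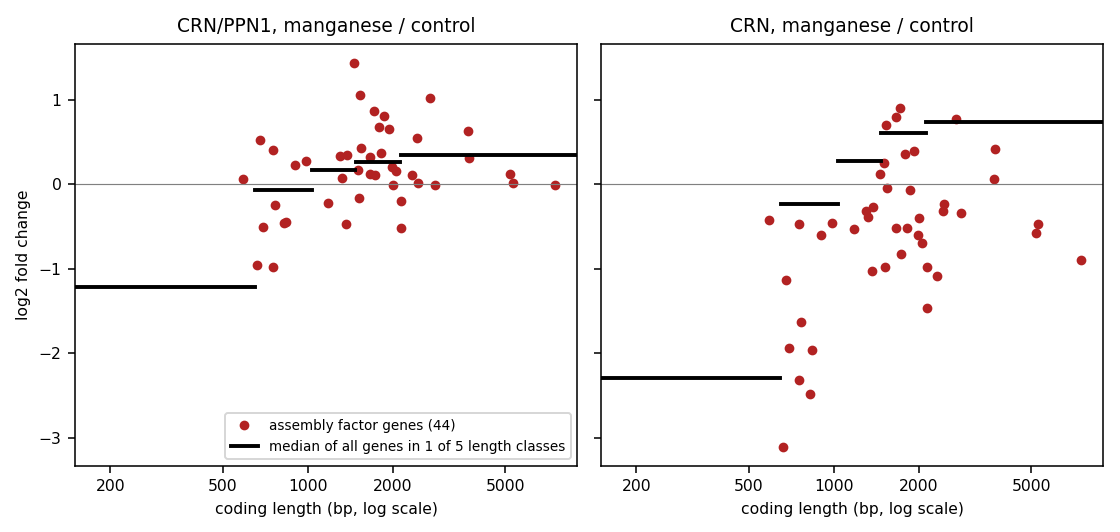
Log2 fold change of manganese over control medium (vertical axis) against coding length (bp, log scale) for the 44 genes (points) in CRN/PPN1 (left) and CRN (right), with the median of all genes in each of 5 equal length classes as a bar. In CRN the short members reach down to -3.10, and the bars of all genes rise with length between -2.29 and 0.73.

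The upstream elements did not divide the members in the same way. In CRN, 24.0% of all tested genes were called lower in manganese. Of the 39 members with a PAC core, 7 were called lower, and 3 of the 5 without it, *UTP4*, *UTP30* and *NOP53*. Of the 20 genes with the longer PAC, 3 were called lower (*UTP11*, *RRP1* and *NOP16*), with a median log2 fold change of -0.32, against 7 of the 24 without it, with a median of -0.60. In CRN/PPN1, the 3 genes called higher in manganese, *NOP8*, *NOP58* and *UTP14*, all had a PAC core and an RRPE core, as had 29 of the 44 members (65.9%). These counts are descriptions of short letter strings and were not tested. The 44 genes lay on 12 chromosomes, 8 of them on chromosome IV, with 21 on the + strand and 23 on the - strand. The closest pair were *RRP15* and *NOC4*, with 689 bases between them on chromosome XVI.

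The other genes of the pathway were read in the same fit, and their counts stand beside these shares of all tested genes. In CRN, 24.0% were called lower in manganese and 24.7% higher (10.5% and 63.7% with scaling to the library total). In CRN/PPN1, 15.1% were lower and 10.1% higher (6.99% and 32.4% with that scaling). With the length trend removed, 13.5% were lower and 28.2% higher in CRN, and 5.11% and 11.8% in CRN/PPN1. Of 31 other small-subunit processome factors tested, 5 were called lower in CRN in manganese and 0 higher (21 higher and 1 lower with scaling to the library total), and of 39 other large-subunit factors 14 were lower and 1 higher (3 and 15 with that scaling). In CRN/PPN1, 1 of the small-subunit factors was called lower and 0 higher (1 and 17 with that scaling), and 2 of the large-subunit factors lower and 2 higher (0 and 13). With the length trend removed, 1 small-subunit factor and 14 large-subunit factors were lower in CRN, and 0 of either list in CRN/PPN1. The list of H/ACA proteins, parts of the particles that pseudouridylate rRNA, held *NOP10* (-4.02 ± 0.30 SE, adjusted p = 1.65e-08), *NHP2* (-3.63) and *GAR1* (-1.13, but 0.35 on the library-total scale). These 3 of the 4 genes were called lower, beside 1 of the list with the length trend removed. The other gene, *CBF5*, was not called (0.11). RNA polymerase I, with its initiation factor, had 3 of 8 genes called lower (1 lower and 3 higher on the library-total scale), *RPA12* (-4.12 ± 0.23 SE, adjusted p = 1.98e-09), *RPA34* (-2.21) and *RPA14* (-1.61). All 137 ribosomal protein genes were called lower in CRN in manganese (median -4.38, with 107 lower when the length trend was removed and 115 on the library-total scale). In CRN/PPN1, 95 were called lower (median -1.52), but 54 on the library-total scale, and 1 lower and 8 higher when the length trend was removed (median -0.21). Of 8 regulators of ribosome genes, 4 were called higher in CRN in manganese, *IFH1* (2.39) and *FHL1* (2.03), which act on ribosomal protein genes, *SFP1* (2.24), an activator of ribosome biogenesis genes, and *STB3* (1.73), the repressor that binds RRPE. In CRN/PPN1, *SFP1* (1.78) and *IFH1* (1.68) were called higher. With scaling to the library total all 8 regulators were called higher in CRN and 6 in CRN/PPN1, beside 63.7% and 32.4% of all genes.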

How the data were processed

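Single-end reads were trimmed with Trimmomatic 0.36 and mapped and counted with STAR 2.5.3a on the Ensembl annotation of build R64 (sacCer3), per the labels and the study's methods. The authors deposited unnormalised counts per gene for each library, on either strand and on each strand, and a joint table that was checked to equal the opposite-strand column in 57008 of 57008 values. These opposite-strand counts were used, since they held 90.7% to 93.3% of the reads counted on either strand. Reads without a gene (15.9% to 26.1%) or ambiguous between genes were left out of library sizes. Genes described in the tables as dubious overlap *NOP4*, *NOP56*, *NOP58*, *RRP9*, *RRP14* and *RRP15* on the opposite strand.

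The tests used edgeR 4.0.16 and limma 3.58.1 under R 4.3.3. A gene needed 2 CPM or more in 4 or more of the 8 libraries. Libraries were normalised by TMM, and 4 group means were fitted with the older (legacy) quasi-likelihood F test. P-values were two-sided and adjusted by Benjamini and Hochberg over all 5778 genes. Fitted fold changes used a prior count of 0.125. The biological coefficient of variation was 0.18 with 10.8 prior degrees of freedom. Replicates differed beyond counting noise (chi-square per gene 10.1 to 18.0). With 2 cultures a group, p-values measure the spread between these cultures. On simulated data for manganese against control in CRN, with 5743 genes, 184 of 200 genes changed by a log2 fold change of 2 were called, and 6 others. The simulation kept all other genes level between the groups, so it does not cover the differences in library makeup of the data.

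Alternatives were DESeq2 1.42.0, its size factors in edgeR, library-total scaling, the edgeR 4 form, no filter, a replicate block, removal of the lowess trend (span 0.3) of fold change with coding length, either-strand counts, only the groups compared and leaving out each library. The length trend with the block was added after the data were seen. Values in every library are given for *NOP1*, *NOP56*, *NOP58*, *RRP9*, *RRP5*, *NOC2*, *NOC3*, *NOC4* and the 3 members with the highest and the 3 with the lowest log2 fold change in each of the 5 comparisons. The members, lists and tests were chosen with earlier results of these data known. Coding lengths, loci and upstream windows are from RefSeq.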

Additional observations from a re-analysis of the deposited data

Results flagged for a closer look

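The manganese response differed between the strains, by the interaction test in edgeR after TMM, for *NOP15* (2.14), *UTP30* (2.02), *NOP6* (1.66), *RRP1* (1.51), *NOP16* (1.44), *UTP23* (1.39), *UTP11* (1.34) and *UTP4* (1.20), given as the log2 fold change of CRN/PPN1 minus that of CRN. These 18.2% of the members stood beside 15.0% of all tested genes. Of the 8, scaling to the library total kept *NOP15* and *UTP30*, and removal of the length trend kept *NOP15*, *RRP1*, *UTP30* and *UTP4*. Strain and time of harvest cannot be told apart between the manganese groups. Reads on the strand that was not used were seen over *RRP1* (35.6% of the gene's reads in CRN in manganese), *UTP5* (10.8%) and *UTP18* (8.77%), above their share in CRN in control medium.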

How the results depend on the processing

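Of the members' single values under the alternatives, 3748 kept their side of the call rule, 102 became called, 44 lost the call and 22 that were called with or without the change turned sign. In all, 234 of 3916 values turned sign, most of them uncalled, and 98 of these with scaling to the library total, which turned 28 of 44 for manganese in CRN, 12 in CRN/PPN1, 21 in the interaction, and 26 in control medium and 11 in manganese between the strains. That scaling gave 23 members higher and 1 lower in CRN (63.7% and 10.5% of all genes), 15 higher in CRN/PPN1 (32.4%), 2 higher and 1 lower in the interaction (6.33% and 37.2%), and between the strains 0 lower in control medium (0.640%) and 1 higher in manganese (6.78%). The turned values in CRN that were called on either scale were *NOC2* (0.0065), *NOP1* (1.02), *NOP12* (1.21), *NOP14* (1.18), *NOP19* (1.08), *NOP2* (1.39), *NOP53* (0.45), *NOP6* (0.34), *NOP9* (1.11), *RRP14* (1.18), *RRP15* (1.04), *UTP10* (1.03), *UTP13* (1.26), *UTP15* (1.43), *UTP21* (1.15), *UTP4* (0.39) and *UTP6* (1.09). Removing the length trend turned *NOP19* (1.35, and 1.33 with the replicate block) and *NOP6* (0.14, and 0.13) and gave 1 member higher in CRN, 0 lower between strains in control medium and 1 higher in manganese, with the block or without it. The shares of all genes for these 3 counts were 28.2%, 0.710% and 6.01% without the block, and 28.3%, 0.779% and 6.11% with it. With length trend and block, 13 were higher in the interaction, beside 8.01% of all genes. Counting either strand turned *RRP14* (1.55) in CRN and gave 1 member higher there (24.1% of all genes) and 1 lower in CRN/PPN1 (14.3%). Leaving out a library gave 0 to 1 higher and 9 to 11 lower in CRN, 1 to 4 higher and 0 to 2 lower in CRN/PPN1, 8 to 12 higher in the interaction, 1 to 5 lower between strains in control medium and 1 to 2 higher in manganese. The replicate block changed no member's call (10, 3, 1, 2 and 8 called, as without it, beside 24.1%, 10.1%, 4.40%, 10.5% and 15.6% of all genes). Deviations of same-numbered replicates correlated at 0.036 to 0.22 between groups, above 0.1 in 5 of 6 pairs of groups. Replicates were grown at the same time per the study's methods, but which number goes with which cultivation is not given in the sources used here. The fit of only the groups compared has no interaction. The cause of these changes was not tested. Depth limits low genes such as *NOP8*, with 28 to 175 counts.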
